A study of Mus musculus with 6 samples.

Results

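The transcripts described here encode the coats of lipid droplets and the enzymes that build and break down the triglyceride inside them, in alveolar macrophages (AMs), the macrophages of the lung airspaces. The 10 genes were chosen by name and role, with earlier results of these data known, from the 24341 genes of the deposited table: the perilipins Plin1, Plin2 and Plin3, the diacylglycerol acyltransferases Dgat1 and Dgat2, the lipases Pnpla2, Lipe and Mgll, the droplet fusion factor Cidec, and Lipn of the acid lipase family. RNA sequencing was performed on AMs washed from the lungs of CD44+/+ and CD44-/- mice, to compare their transcripts with and without CD44, a surface receptor for the matrix sugar hyaluronan. There were 3 samples per genotype, each pooled from mice, unequal in number and not tied to the replicate numbers in the sources used here, and all were female C57BL/6 mice, aged 6-10 weeks. The CD44-/- genotype was that of the whole animal and not of AMs alone. The red cells were lysed after the lavage, and the labels state neither a sort nor a treatment.

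A lipid droplet is a core of triglyceride and cholesterol ester under a single layer of phospholipid, to which coat proteins bind. Triglyceride is finished by an acyltransferase that adds the last fatty acid to diacylglycerol, and it is taken apart 1 fatty acid at a time by a chain of lipases that the coat and small regulator proteins hold back or let in. AMs take up and degrade the lipid-rich surfactant of the lung, and macrophages overloaded with droplets are known as foam cells.

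The levels are FPKM values, in which a transcript's fragments are scaled by its length and by the mapped fragments of the sample, and which allow levels of different genes to be set beside each other. A gene was tested if it averaged at least 0.5 FPKM over the 6 samples, and each log2 fold change gives CD44-/- over CD44+/+ AMs, computed from log2(FPKM + 0.1). In bulk samples, fewer cells of a type and less RNA per cell cannot be told apart.

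Cd44 itself had between 527 and 540 FPKM in the CD44+/+ samples and between 51.4 and 54.7 FPKM in the CD44-/- samples, and the library labels match these levels. The summed FPKM of the 6 samples lay between 487901 and 504182, and their depth relative to CD44+/+ replicate 1 lay between 0.814 and 1.05. The 10 AM markers summed to between 17433 and 21707 FPKM over all samples, a sum carried by Chil3, and 0 of them passed the test. Of the 10, Itgax was higher and Mrc1 and Krt79 were lower in every CD44-/- sample, with log2 fold changes of 0.08 (adjusted p = 0.809), -0.08 (adjusted p = 0.748) and -0.38 (adjusted p = 0.185), beside 6.75% of all genes tested that were higher and 4.88% that were lower without overlap. The summed levels of markers of alveolar type 2, airway secretory, erythroid and neutrophil cells overlapped between the genotypes, and 0 of their genes passed the test. Single type 2 markers did stand apart or nearly so. Sftpb, a surfactant protein gene, was at 2.13, 1.26 and 1.48 FPKM in CD44+/+ samples and at 3.80, 2.32 and 6.53 FPKM in CD44-/- samples. It was higher in every CD44-/- sample (log2 fold change 1.24, adjusted p = 0.369), as 6.75% of all genes tested were. Sftpc had a log2 fold change of 1.44 (adjusted p = 0.591) and overlapped. It was at 74.2 FPKM in CD44-/- replicate 3 against at most 22.8 FPKM in the other samples. The median over the 6 tested type 2 markers was 0.45. Of these, 4 had higher means in CD44-/- samples, with Sftpd at 0.08, while Abca3 (-0.04) and Napsa (-0.01) had lower means. All 7 airway secretory markers had lower means in CD44-/- samples, with overlap and a median log2 fold change of -0.35. Of the 6 tested neutrophil markers, 2 had higher and 4 had lower means in CD44-/- samples, each with overlap, and their median was -0.54. The 4 tested erythroid markers all had higher means in CD44-/- samples, with overlap and a median of 0.47, and their sum was highest in CD44-/- replicate 2, at 110.5 FPKM. The 6 fibroblast markers summed to between 0.0235 and 0.300 FPKM in CD44+/+ samples and to between 0.240 and 0.423 FPKM in CD44-/- samples. These sums overlapped, and 0 of the fibroblast markers reached the level needed for testing. The part of these cells in the values that follow was not tested. The adipocyte markers bear most on Plin1, Lipe and Cidec, which are best known from fat. Their 9 genes summed to between 0.125 and 0.262 FPKM in CD44+/+ samples and to between 0.0802 and 0.615 FPKM in CD44-/- samples. Of the 9, 3 (Adipoq, Lep and Aqp7) were listed at 0 in every sample, and the highest value of any was 0.301 FPKM.

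Every one of the 10 genes was detected in every sample, and their mean levels spanned from Lipn at 0.605 FPKM to Plin2 at 691.5 FPKM. Plin2 stood at the 99.3 percentile of the 10800 genes tested and Lipn at the 1.70 percentile. The order of the mean levels was Plin2, Cidec, Mgll, Plin3, Pnpla2, Dgat2, Dgat1, Lipe, Plin1 and Lipn. Plin3 and Pnpla2 did not differ beyond their spread, at 73.3 and 70.4 FPKM, and Plin3 was the higher in 4 of 6 samples. Plin1 and Lipn also overlapped across samples, and Plin1 was the higher in 5 of 6. All other neighbours in the order kept apart in all 6 samples. The droplet genes of these AMs were therefore led by Plin2 and Cidec, and the fat cell coat Plin1 was near the end of the order.

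**Figure D1:**
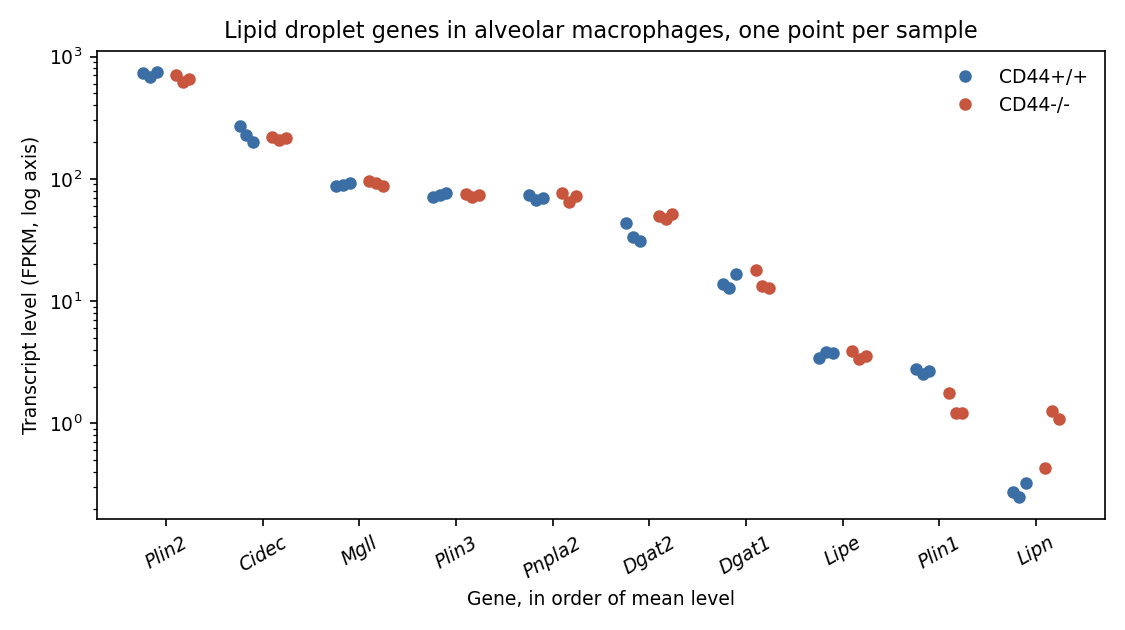
Transcript level in FPKM (log axis) of the 10 lipid droplet genes in order of mean level, with 1 point for each of the 3 CD44+/+ (blue) and 3 CD44-/- (red) samples. Plin2 lies between 619 and 747 FPKM, Lipn lies between 0.248 and 1.26 FPKM, and the colours separate at Dgat2, Plin1 and Lipn.

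In the comparison of genotypes, 0 of the 10 genes passed an adjusted p of 0.05 in limma, beside 0.111% of all 10800 genes tested. Before adjustment, 3 of the 10 had a p under 0.05, beside 7.69% of all genes, and the same genes, Plin1, Dgat2 and Lipn, were the 3 whose CD44-/- samples lay wholly on one side of the CD44+/+ samples, beside 11.6% of all genes (6.75% higher and 4.88% lower). Plin1 was lower and Dgat2 and Lipn were higher in CD44-/- AMs, and Lipn reached the level needed for testing only through the samples in which it was high. These 3 genes are among those the study itself picked out from the same samples, so they are not independent evidence of direction. The remaining 7 genes had log2 fold changes smaller than 0.15 in size, with overlapping samples. Over the 10 genes the median log2 fold change was 0.0024, with 5 higher and 5 lower (Pnpla2 turned from higher to lower with median-ratio scaling), beside a median of 0.01 over all genes tested.

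**Figure D2:**
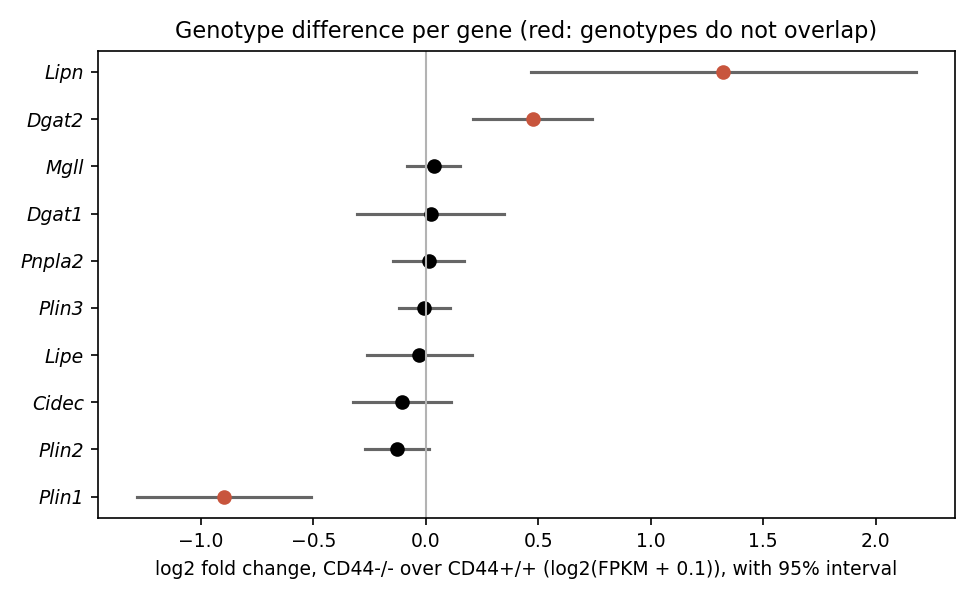
Log2 fold change of CD44-/- over CD44+/+ AMs on the log2(FPKM + 0.1) scale for the 10 genes (points) with 95% intervals from limma (lines), red where the samples of the genotypes do not overlap. Plin1 lies at -0.90, Dgat2 at 0.47 and Lipn at 1.32, while the intervals of the other 7 genes include 0.

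The regulatory sequence just before the start of 3 of these genes is given to set the dominant coat Plin2 beside the genes with the largest differences in either direction, Plin1 and Lipn. The sequences are the 250 bases before each start in RefSeq (GRCm38.p6), read 5′ to 3′ on the strand of the gene, at chr4:86670060-86670309 (minus strand) for Plin2, chr7:79732777-79733026 (minus strand) for Plin1 and chr19:34067108-34067357 (plus strand) for Lipn. Capitals mark matches to any of 5 short motifs, searched on both strands: the TATA box, written TATAAA, the CCAAT box, the GC box, written GGGCGG, the E-box, written CACGTG, and the half-site of nuclear receptors, written AGGTCA.
Plin2: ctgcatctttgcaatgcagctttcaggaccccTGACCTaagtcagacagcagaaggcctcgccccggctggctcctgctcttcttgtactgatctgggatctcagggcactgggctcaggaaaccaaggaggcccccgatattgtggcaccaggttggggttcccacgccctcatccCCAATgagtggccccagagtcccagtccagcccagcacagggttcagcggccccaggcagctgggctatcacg
Plin1: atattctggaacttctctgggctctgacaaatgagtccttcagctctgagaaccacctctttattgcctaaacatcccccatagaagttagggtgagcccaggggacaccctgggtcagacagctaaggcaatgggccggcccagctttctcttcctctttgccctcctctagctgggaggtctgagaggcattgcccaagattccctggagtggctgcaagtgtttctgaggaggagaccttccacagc
Lipn: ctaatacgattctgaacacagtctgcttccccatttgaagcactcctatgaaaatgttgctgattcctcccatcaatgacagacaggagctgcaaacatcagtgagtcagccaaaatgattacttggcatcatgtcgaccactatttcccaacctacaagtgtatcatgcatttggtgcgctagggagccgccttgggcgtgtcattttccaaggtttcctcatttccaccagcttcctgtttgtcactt

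The Plin2 window held a CCAAT box 73 bases before the start and a reversed nuclear receptor half-site 218 bases before it. The windows of Plin1 and Lipn held none of the 5 motifs. The Plin1 window rests on the RefSeq start, as Plin1 in GENCODE extends to chr7:79732903, inside that window. RefSeq windows were matched for 8 of the 10 genes, all but Dgat1 and Dgat2, with 11 windows in all since some genes have several starts. The CCAAT box was found in 2 of the 11 windows (Plin2 and Plin3) and in 33.8% of all 32851 windows of this length, and the GC box in 4 of the 11 (Plin3, Pnpla2, Lipe and Mgll) and in 32.7% of all windows. The E-box was found in 2 of the 11 (Lipe and Mgll) and in 6.02% of all windows, and the half-site in 1 of the 11 (Plin2) and in 14.0% of all windows. A TATA box was found in 0 of the 11 and in 12.4% of all windows. These matches describe letters and do not show that a factor binds.

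The coats were described first. Plin2, the perilipin found on droplets of most cell types (mm10 chr4:86656565-86670059), was measured at 736, 683 and 747 FPKM in CD44+/+ AMs and at 703, 619 and 661 FPKM in CD44-/- AMs. The samples overlapped, with CD44-/- replicate 1 inside the CD44+/+ range, while within same-numbered samples CD44-/- AMs were the lower in 3 of 3. The CD44+/+ mean of 722 ± 34.2 FPKM and the CD44-/- mean of 661 ± 42 FPKM (SD, n = 3 each) differed by -0.13 on the log2 scale (95% interval -0.27 to 0.01, adjusted p = 0.697, with the replicate block 0.471). Plin3, which moves from the cytosol onto young droplets (chr17:56278962-56290511), was at 70.9, 73.6 and 76.1 FPKM in CD44+/+ and at 75.1, 71.2 and 73.1 FPKM in CD44-/- AMs. The CD44-/- samples lay within the CD44+/+ range, and the log2 fold change was -0.01 (95% interval -0.12 to 0.11, adjusted p = 0.989). Plin2 transcript exceeded Plin3 transcript by 8.69 to 10.4 times in every sample of both genotypes.

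Plin1, the coat that gates lipolysis in fat cells by holding Abhd5 away from Pnpla2 (chr7:79721164-79732776), was measured at 2.78, 2.53 and 2.66 FPKM in CD44+/+ AMs. It was at 1.78, 1.21 and 1.21 FPKM in CD44-/- AMs. Every CD44-/- sample was below every CD44+/+ sample, and CD44-/- replicate 1 was the nearest to them. The mean in CD44-/- AMs was 52.7% of that in CD44+/+ AMs, with 1.40 ± 0.329 FPKM against 2.66 ± 0.129 FPKM (SD, n = 3 each). The log2 fold change of -0.90 (standard error 0.17, 95% interval -1.28 to -0.51) had an unadjusted limma p of 0.000592 and an adjusted p of 0.158. The exact two-sided permutation test gave p = 0.1, the smallest that 3 against 3 samples allow. Without CD44-/- replicate 1 the log2 fold change was -1.07 and the adjusted limma p 0.0453. With any other single sample left out the adjusted p lay between 0.152 and 0.579, so Plin1 passed in that case alone.

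Plin4 and Plin5, the coats of fat cells and of oxidative muscle, averaged under 0.5 FPKM and were not tested. Plin4 was listed at 0.00899, 0.00984 and 0.0172 FPKM in CD44+/+ and at 0.0274, 0.0891 and 0.0576 FPKM in CD44-/- AMs, with no overlap, and under 0.1 FPKM throughout. Plin5 was between 0 and 0.0703 FPKM in all 6 samples. As a share of the summed FPKM of Plin1 to Plin5, Plin1 made up 0.344%, 0.333% and 0.322% in CD44+/+ AMs and 0.228%, 0.176% and 0.164% in CD44-/- AMs. The CD44-/- shares were all lower, with a difference in means of -0.143 percentage points (0.189% ± 0.0342 against 0.333% ± 0.0109, SD, n = 3 each, exact two-sided permutation p = 0.1, adjusted over 2 shares 0.2). The ratio of Plin2 to Plin1 transcript lay between 264 and 281 in CD44+/+ samples and between 395 and 547 in CD44-/- samples.

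Triglyceride synthesis ends with Dgat1 and Dgat2, enzymes of unrelated structure that add the last fatty acid. Dgat2 (chr7:99153663-99182713) was measured at 43.6, 33.2 and 30.8 FPKM in CD44+/+ and at 50.1, 46.8 and 51.1 FPKM in CD44-/- AMs. The genotypes did not overlap and CD44-/- AMs were the higher, though CD44+/+ replicate 1 stood close to the lowest of them. The means were 35.9 ± 6.80 FPKM in CD44+/+ and 49.3 ± 2.25 FPKM in CD44-/- AMs (SD, n = 3 each), a level 138% of that in CD44+/+ AMs. The log2 fold change of 0.47 (standard error 0.12, 95% interval 0.21 to 0.74) had an unadjusted limma p of 0.00316, an adjusted p of 0.31 and an exact two-sided permutation p of 0.1. Without CD44+/+ replicate 1 it was 0.62 with an adjusted p of 0.0146. With any other single sample left out the adjusted limma p lay between 0.313 and 0.835.

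Dgat1 (chr15:76502015-76511818) was at 13.9, 12.8 and 16.7 FPKM in CD44+/+ and at 18.1, 13.4 and 12.8 FPKM in CD44-/- AMs. The genotypes overlapped over most of their range, and the log2 fold change was 0.02 (95% interval -0.31 to 0.35, adjusted p = 0.989), an interval wide enough to contain part of that of Dgat2. Dgat2 made up 75.8%, 72.2% and 64.8% of the summed Dgat1 and Dgat2 FPKM in CD44+/+ AMs and 73.5%, 77.7% and 80.0% in CD44-/- AMs. The shares overlapped, at 70.9% ± 5.59 against 77.1% ± 3.31 (SD, n = 3 each), and their difference of 6.11 percentage points had an exact two-sided permutation p of 0.2, adjusted over 2 shares 0.2. Without CD44+/+ replicate 3 the difference in the Dgat2 share was 3.06 points. With 3 samples per genotype this test cannot give a p under 0.1.

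**Figure D3:**
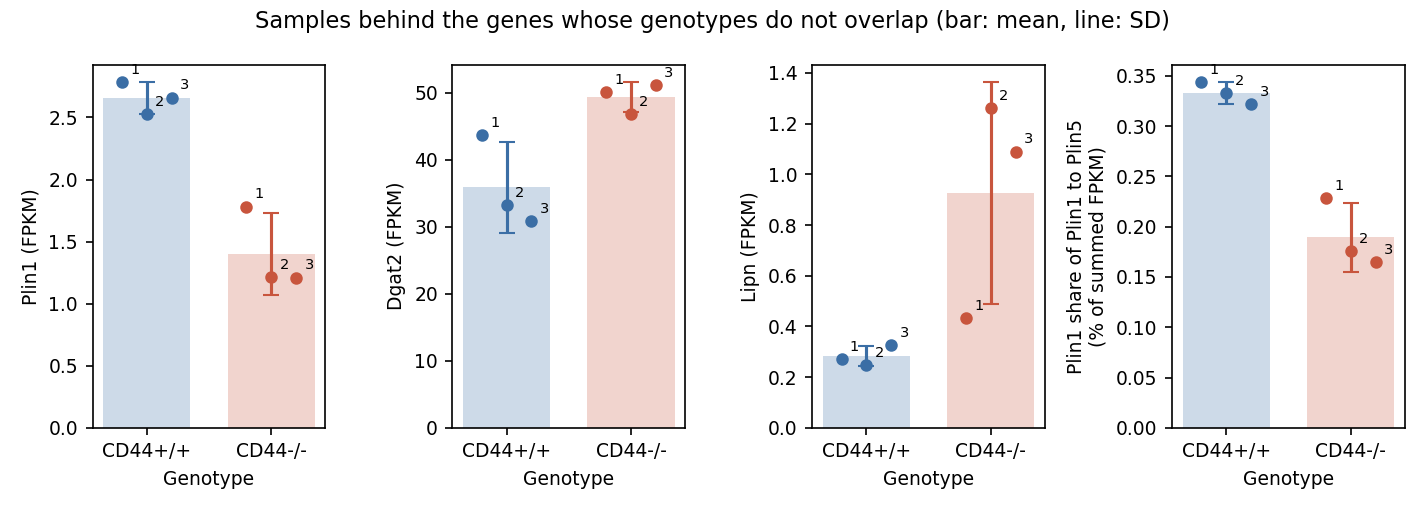
Sample values (points, numbered by replicate), means (bars) and SD (lines) of Plin1, Dgat2 and Lipn in FPKM and of the Plin1 share of Plin1 to Plin5 in percent of summed FPKM, for 3 CD44+/+ (blue) and 3 CD44-/- (red) samples. Plin1 lies between 1.21 and 1.78 FPKM in CD44-/- AMs against 2.53 to 2.78 FPKM in CD44+/+ AMs, and CD44-/- replicate 1 is nearest to CD44+/+ AMs for Plin1, Lipn and the Plin1 share.

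The 3 lipases of the classical chain were each close in the 2 genotypes. Pnpla2, the adipose triglyceride lipase that removes the first fatty acid (chr7:141455188-141460743), was at 73.4, 67.3 and 69.4 FPKM in CD44+/+ AMs and at 75.8, 64.4 and 72.0 FPKM in CD44-/- AMs. The CD44-/- samples spanned the whole CD44+/+ range, and the log2 fold change was 0.01 (95% interval -0.14 to 0.17, adjusted p = 0.989). Lipe, the hormone-sensitive lipase that cleaves diacylglycerol and cholesterol esters (chr7:25379527-25398710 in GENCODE, within a longer locus of chr7:25376819-25566417 in the deposited table), was at 3.43, 3.85 and 3.77 FPKM in CD44+/+ AMs and at 3.91, 3.35 and 3.57 FPKM in CD44-/- AMs. These too overlapped, with a log2 fold change of -0.03 (95% interval -0.26 to 0.21, adjusted p = 0.989). Mgll, which frees the last fatty acid from monoacylglycerol (chr6:88724412-88828360), was at 87.8, 88.2 and 93.2 FPKM in CD44+/+ AMs and at 95.2, 92.7 and 87.9 FPKM in CD44-/- AMs. These values overlapped as well, and the difference of 0.03 on the log2 scale had the narrow interval of -0.08 to 0.15 (adjusted p = 0.968). In every sample the hormone-sensitive lipase transcript was far below those of the lipases before and after it in the chain. In the GENCODE annotation 861 exon bases of Lipe are shared with 4732471J01Rik and 152 exon bases of Mgll with Gm26588, both on the opposite strand, and the use of strand in counting is not given in the sources used here.

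Cidec, which draws lipid from small droplets into large ones where droplets touch (chr6:113424634-113435760), was the most abundant of the 10 transcripts after Plin2. It was at 269, 228 and 199.9 FPKM in CD44+/+ AMs and at 219, 208 and 217 FPKM in CD44-/- AMs. The CD44-/- samples lay inside the CD44+/+ range and close together, with a coefficient of variation of 2.61% against 15.0% in CD44+/+ AMs. The means were 233 ± 34.9 and 215 ± 5.61 FPKM (SD, n = 3 each), a log2 fold change of -0.11 (95% interval -0.32 to 0.11, adjusted p = 0.923). Its relative Cidea was at or under 0.111 FPKM in every sample. Cideb, known from droplets and lipoproteins of the liver, was at 12.5, 14.4 and 14.7 FPKM in CD44+/+ AMs and at 16.6, 16.3 and 15.2 FPKM in CD44-/- AMs. All CD44-/- samples were higher for Cideb, by 0.21 ± 0.08 (SE) on the log2 scale (adjusted p = 0.558).

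Lipn, a member of the acid lipase family best known from the epidermis (chr19:34067358-34084918), was at 0.272, 0.248 and 0.325 FPKM in CD44+/+ AMs. In CD44-/- AMs it was at 0.432, 1.26 and 1.09 FPKM. The genotypes did not overlap and CD44-/- AMs were again the higher, with their replicate 1 far closer to CD44+/+ AMs than replicates 2 and 3. The means were 0.282 ± 0.0394 and 0.927 ± 0.437 FPKM (SD, n = 3 each), or 329% of the CD44+/+ level. The log2 fold change of 1.32 (standard error 0.38, 95% interval 0.47 to 2.18) had an unadjusted limma p of 0.00707, an adjusted p of 0.385 and an exact two-sided permutation p of 0.1. Lipn passed the minimum of 0.5 FPKM through the CD44-/- samples alone, and with a pseudocount of 1 in place of 0.1 its log2 fold change was 0.56. RNAs that lack a poly(A) tail were looked up after the values were seen. Rn45s, a ribosomal RNA precursor, was at 0.878, 0.573 and 0.798 FPKM in CD44+/+ AMs and at 1.39, 3.61 and 2.12 FPKM in CD44-/- AMs. Rpph1 was between 0.872 and 2.89 FPKM in CD44+/+ AMs and at 4.30, 9.05 and 11 FPKM in CD44-/- AMs. Rmrp was between 2.06 and 5.29 FPKM against 4.69, 23.7 and 33.2 FPKM, with overlap. In all 3, as in Lipn and Plin1, replicate 1 was the CD44-/- sample nearest to CD44+/+ AMs. The highest CD44-/- sample was replicate 2 for Lipn and Rn45s and replicate 3 for Rpph1 and Rmrp. The part of these RNAs in the results was not tested. Of the other acid lipases, Lipa, the lysosomal enzyme that clears cholesterol esters and triglyceride, had 534 ± 37.1 and 523 ± 10.2 FPKM (SD, n = 3 each, log2 fold change -0.03, adjusted p = 0.972). Its transcript exceeded that of Lipn by 424 to 2138 times over the samples. Lipk and Lipm, neighbours of Lipn on chromosome 19, were listed at 0 in all samples. Lipf and Lipo1, on the same chromosome, were between 16 and 22 FPKM and between 11.4 and 14.2 FPKM over the samples, with overlap. In this family 0 of the 3 other genes tested passed the test.

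The 10 genes lie on 6 chromosomes, and none lies on chromosome 2 with Cd44. The 4 on chromosome 7 had no common direction, as Plin1 was lower in every CD44-/- sample, Dgat2 was higher, and Pnpla2 and Lipe overlapped. The spread between pools also differed from gene to gene. The coefficient of variation in CD44+/+ AMs was between 3.39% for Mgll and 19.0% for Dgat2, and in CD44-/- AMs it was between 2.61% for Cidec and 47.2% for Lipn. Plin1 varied by 4.86% in CD44+/+ and by 23.5% in CD44-/- AMs, and Dgat2 the other way round, by 19.0% and 4.56%.

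Around these genes, 65 further genes of the pathway were read from 6 lists, and 48 of them were tested. Of the 48, 0 passed an adjusted p of 0.05 in limma, 8 had an unadjusted p under 0.05 (7.69% of all genes tested did), and 11 did not overlap between the genotypes, 4 higher and 7 lower in CD44-/- AMs (6.75% and 4.88% of all genes). Their median log2 fold change was -0.02. The 11 tested genes for other droplet proteins held 1 without overlap, Cideb, and had a median log2 fold change of 0.03. Hsd17b11, a droplet-bound dehydrogenase and the most abundant of them, had 95.1 ± 6.94 and 97.9 ± 2.73 FPKM (SD, n = 3 each, adjusted p = 0.966). Bscl2, the seipin of droplet birth sites, had 53.3 ± 4.07 and 54.3 ± 2.22 FPKM (adjusted p = 0.977). Fitm2, which helps droplets bud from the endoplasmic reticulum, had 2.93 ± 0.330 and 2.56 ± 0.361 FPKM (adjusted p = 0.869).

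Among 13 tested genes for the steps before Dgat1 and Dgat2, 3 did not overlap and all 3 were lower in CD44-/- AMs, as 4.88% of all genes were. Agpat2, which makes phosphatidic acid, was at 13.1, 12.0 and 10.9 FPKM in CD44+/+ AMs and at 10.8, 9.78 and 9.12 FPKM in CD44-/- AMs. The highest CD44-/- sample of Agpat2 was just under the lowest CD44+/+ sample, and the genotypes differed by -0.27 ± 0.09 (SE) on the log2 scale (adjusted p = 0.496). The fatty acid activating enzymes Acsl1 and Acsl4 had log2 fold changes of -0.11 (adjusted p = 0.685) and -0.14 (adjusted p = 0.678). Acsl5, the most abundant gene of the list, had 73.5 ± 2.63 and 72.4 ± 0.872 FPKM (SD, n = 3 each, adjusted p = 0.973).

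The genes that regulate Pnpla2 or act beside it gave 11 tested members, with 3 lower and 0 higher without overlap (4.88% and 6.75% of all genes) and a median log2 fold change of -0.12. Abhd5, the coactivator of Pnpla2, was at 76.1, 78.6 and 73.7 FPKM in CD44+/+ AMs and at 71.6, 66.0 and 69.4 FPKM in CD44-/- AMs. All CD44-/- samples were lower for Abhd5, with a difference of -0.14 ± 0.05 (SE) on the log2 scale (adjusted p = 0.541). G0s2, which inhibits Pnpla2, was at 12.2, 12.3 and 9.43 FPKM in CD44+/+ AMs and at 9.09, 8.12 and 9.64 FPKM in CD44-/- AMs. The samples of G0s2 overlapped through replicate 3 of either genotype, and the difference was -0.33 ± 0.12 (SE) on the log2 scale (limma, adjusted p = 0.524). The coactivator and the inhibitor thus both had lower means while Pnpla2 did not. Hilpda, another inhibitor of Pnpla2, had 5.38 ± 0.923 and 5.08 ± 0.670 FPKM (SD, n = 3 each, adjusted p = 0.971). Pnpla5, a lipase related to Pnpla2, was lower in every CD44-/- sample with a log2 fold change of -0.20 (adjusted p = 0.583). Lpl, which frees fatty acids from lipoproteins outside the cell, was between 1100 and 1300 FPKM in CD44+/+ AMs and between 934 and 1090 FPKM in CD44-/- AMs, which is a difference of -0.19 on the log2 scale (adjusted p = 0.672).

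**Figure D4:**
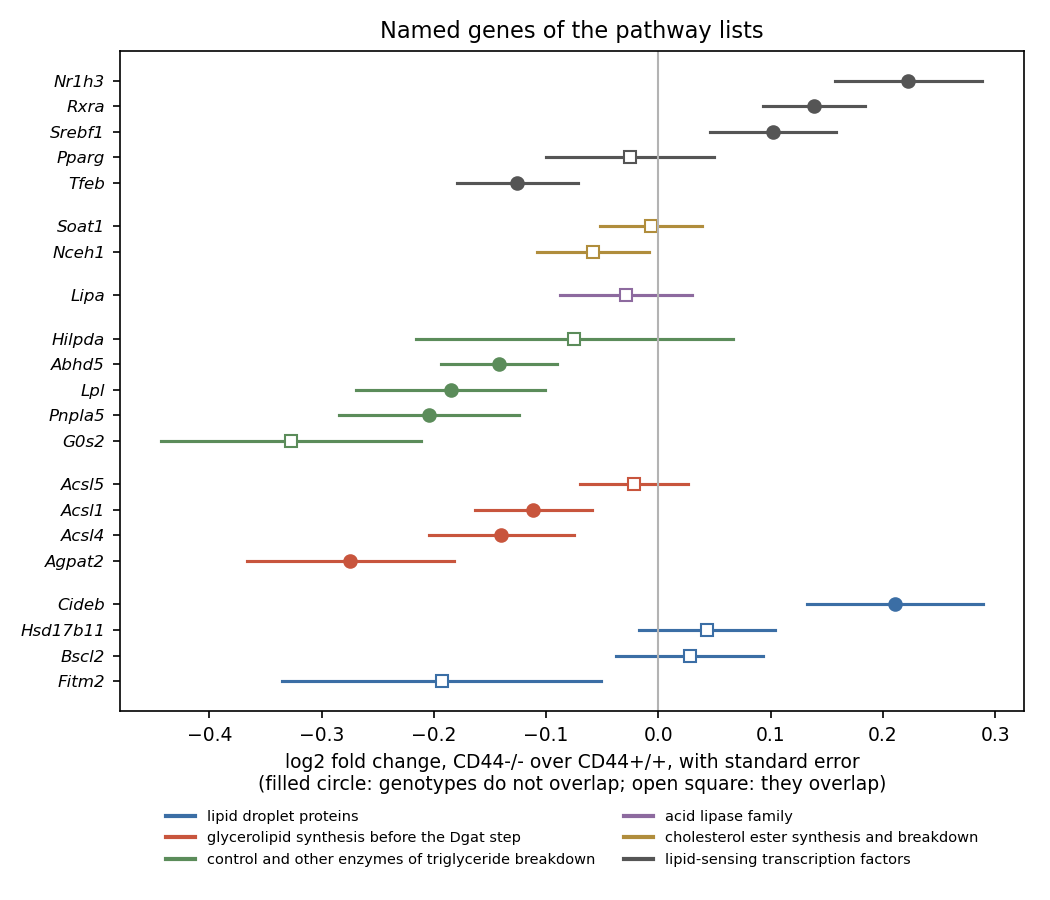
Log2 fold change of CD44-/- over CD44+/+ AMs with standard errors for the named genes of the 6 pathway lists, coloured by list, with filled circles where the genotypes do not overlap and open squares where they do. G0s2 at -0.33 and Agpat2 at -0.27 are the lowest, Nr1h3 at 0.22 and Cideb at 0.21 are the highest, and 0 of them passed the test.

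Set against Pnpla2 within each sample, the balance of these transcripts can be read without regard to scaling. The pairs were chosen after their values were seen and are given with no test. The ratio of Dgat2 to Pnpla2 was 0.594, 0.493 and 0.444 in CD44+/+ AMs and 0.661, 0.727 and 0.710 in CD44-/- AMs, higher in every CD44-/- sample. The ratio of Abhd5 to Pnpla2 was between 1.04 and 1.17 in CD44+/+ AMs and between 0.944 and 1.02 in CD44-/- AMs. The ratio of G0s2 to Pnpla2 was between 0.136 and 0.183 in CD44+/+ AMs and between 0.120 and 0.134 in CD44-/- AMs. Both regulator ratios were thus lower in every CD44-/- sample by a narrow gap, though G0s2 itself overlapped between the genotypes. The share of all gene pairs whose ratios part in this way was not computed. The ratio of Hilpda to Pnpla2 did overlap, between 0.0619 and 0.0919 in CD44+/+ AMs and between 0.0672 and 0.0770 in CD44-/- AMs.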

How the data were processed

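RNA of AMs from 3 CD44+/+ and 3 CD44-/- samples was sequenced. The authors aligned reads to mm10 (GRCm38) by STAR and ran Cufflinks, whose FPKM values they deposited, normalised by them for transcript length and mapped fragments. The Cuffdiff columns of the same table (group means, fold changes, p-values and q-values) were not used. The name and position columns follow another row order than the identifiers (0 rows match), so positions were looked up by gene name and written with a first base of 1. 1 identifier lacking a value was left out, and 101 identifiers with several gene names were kept as single genes.

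Of 24341 genes, the 10800 averaging 0.5 FPKM or more were compared on log2(FPKM + 0.1) in R 4.3.3 with limma 3.58.1 (lmFit, then eBayes with an intensity trend). Two-sided p-values were adjusted by Benjamini-Hochberg across the whole set, with a threshold of 0.05. The script was tested on simulated data. The 10 genes, the 6 pathway lists and the 7 marker lists were chosen with earlier results of these data known. Genes named from the pathway lists were those with an unadjusted p under 0.05 or no overlap, the regulators and relatives of the 10 genes, and the most abundant gene of each list. Shares were compared by exact permutation tests over samples. Promoter windows were taken from RefSeq and exon overlaps from GENCODE.

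Genotype and replicate number came from the sample labels. Deviations from the genotype means of same-numbered samples had correlations of 0.212, 0.132 and 0.211 for replicates 1, 2 and 3 across genes, all over 0.1, so the numbers were treated as pairing the samples in the replicate block, on the evidence of the data and not of a stated shared batch. The samples are pools of mice, so errors are between pools. Absolute depth is unknown, and no counting interval is given. Alternatives were other pseudocounts (1 and 0.01), filters, scalings and variance models, the replicate block, and omission of each sample.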

Additional observations from a re-analysis of the deposited data

How the results depend on the processing

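Of all genes tested, 12 passed the threshold (831 with an unadjusted p under 0.05). The count was 7 with no filter on the mean, 9 with the replicate block, and between 6 and 36 with 1 sample left out, namely 36 without CD44+/+ replicate 1, 22 without CD44-/- replicate 1, 7 without CD44+/+ replicate 2 and 6 without CD44-/- replicate 2. Of the 10 lipid droplet genes, 0 to 1 passed with 1 sample left out: Dgat2 without CD44+/+ replicate 1 (adjusted p 0.0146) and Plin1 without CD44-/- replicate 1 (0.0453). With another sample left out the adjusted limma p reached 0.835 for Dgat2 and 0.579 for Plin1. None of the 10 passed under any other alternative, and the replicate block changed no call among them or among the named pathway genes. The log2 fold changes with 1 sample left out ranged from -1.07 to -0.81 for Plin1, 0.37 to 0.62 for Dgat2 and 1.06 to 1.74 for Lipn. Plin2 and Mgll kept their sign, within -0.17 to -0.082 and 0.0087 to 0.066. The remaining genes changed sign, within -0.034 to 0.017 for Plin3, -0.13 to 0.13 for Dgat1 and -0.039 to 0.078 for Pnpla2. The ranges were -0.086 to 0.022 for Lipe and -0.21 to 0.0060 for Cidec, and Pnpla2 was at -0.0024 with median-ratio scaling. Of the 21 named pathway genes, 5 changed sign with 1 sample left out, within -0.018 to 0.088 for Bscl2, -0.19 to 0.052 for Hilpda, -0.077 to 0.023 for Lipa, -0.025 to 0.0085 for Soat1 and -0.089 to 0.032 for Pparg, and 16 did not change sign under any alternative. Lipn was not tested with a minimum mean of 1 FPKM, and its adjusted p lay between 0.0618 and 0.918 over 14 alternatives. Absolute depth is unknown, so no counting error can be given for the low values of Lipn, Plin4, Plin5 and Cidea.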

Other observations

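Cholesterol ester, the other lipid of droplet cores, is made by Soat1 and cleaved by Nceh1. Soat1 had 73.2 ± 1.14 FPKM in CD44+/+ and 72.8 ± 1.72 FPKM in CD44-/- AMs (SD, n = 3 each, log2 fold change -0.01, adjusted p = 0.989). Nceh1 had 264 ± 13.1 and 253 ± 2.08 FPKM (SD, n = 3 each, log2 fold change -0.06, adjusted p = 0.916), so 0 of these 2 tested genes passed the test and both overlapped between the genotypes.

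Of 8 tested transcription factors that sense lipids or act on droplet genes, 0 passed the test in limma, 3 were higher and 1 was lower in every CD44-/- sample (6.75% and 4.88% of all genes tested were), and the median log2 fold change was 0.04. Pparg, which drives AM development and whose targets in fat cells include Plin1 and Cidec, overlapped at 147 ± 10.8 and 144.5 ± 12.0 FPKM (SD, n = 3 each, adjusted p = 0.985). Nr1h3, the sterol sensor LXR alpha, was at 32.2, 36.3 and 33.6 FPKM in CD44+/+ AMs and at 37.3, 40.5 and 41.4 FPKM in CD44-/- AMs. All CD44-/- samples were higher for Nr1h3, with a log2 fold change of 0.22 (adjusted p = 0.415). Its partner Rxra (log2 fold change 0.14, adjusted p = 0.484) and its target Srebf1 (0.10, adjusted p = 0.774) were also higher in every CD44-/- sample. Tfeb, a regulator of lysosomal genes, was lower in every CD44-/- sample (-0.13, adjusted p = 0.645). Of the pathway genes tested, 5 lie on chromosome 2 with Cd44. Nr1h3 (11.6 Mb from Cd44), Rxra (75.0 Mb) and Agpat2 (76.2 Mb) did not overlap between the genotypes, as 11.6% of all genes tested did not, while Abhd12 (47.9 Mb) and Fitm2 (60.6 Mb) did. The part of that position in their values was not tested.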
